A study of Mus musculus with 6 samples.

Results

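The oligoadenylate synthetase genes Oas1a, Oas1b, Oas1c, Oas1g, Oas2, Oas3, Oasl1 and Oasl2 were taken from the deposited table by their symbols, 8 of its 25655 genes, and compared between cells with lowered Id4 and control cells. The cells were Comma-Dβ, an epithelial cell line from mouse mammary gland, used at passage 29. In the siID4 arm (3 libraries) they received 20 nM of the siGENOME Mouse Id4 SMARTpool, a pool of siRNAs against Id4, and in the NT arm (3 libraries) 20 nM of the ON-TARGETplus Non-targeting Control Pool. Both arms were transfected with Dharmafect-4 and harvested 48 hr later. The arms therefore differ in the siRNA product line as well as in the target, and these cannot be told apart. Poly(A) RNA was sequenced to between 19.2 and 23.1 M counts per library.

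Oligoadenylate synthetases are cytoplasmic sensors of double-stranded RNA. When they bind it, the active enzymes join ATP into 2'-5' linked oligoadenylates (2-5A), a second messenger of the antiviral response. Their genes are classical targets of interferon, whose receptors signal to interferon-stimulated response elements (ISREs) in promoters. In the mouse the family is larger than in humans, with a run of Oas1 copies of which Oas1a and Oas1g encode active enzymes, and with Oasl1 and Oasl2, which carry ubiquitin-like domains.

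All 8 members lie on chromosome 5 in 2 groups (GENCODE M21, GRCm38). Oasl2 (114896936 to 114912234) and Oasl1 (114923240 to 114937915) stand next to each other on the plus strand. The others lie between 120730333, the near end of Oas2, and 120907521, the start of Oas1a. Of these, Oas1b alone is on the plus strand, and it is annotated as a polymorphic pseudogene. Oas1c and Oas1b point away from each other with 120 bases between their annotated starts.

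The sequences just before 6 of the 8 starts are shown because interferon-responsive genes are usually read through ISREs there, and because most of these genes were higher together in siID4 cells. RefSeq promoter windows (GRCm38.p6) of 300 bases, 250 before and 50 after the start, were matched for Oas1a, Oas1c, Oas1g, Oas3, Oasl1 and Oasl2, and not for Oas1b and Oas2. Both strands were searched for the ISRE core GAAANNGAAA and for the interferon-gamma-activated site (GAS) TTCNNNGAA, where N is any base and matches may overlap. The last 120 bases before each start are printed 5′ to 3′ on the gene's strand, with matches to the ISRE core in capitals. They lie at chr5:120907526-120907645 on the minus strand, chr5:120887614-120887733 on the minus strand, chr5:120812515-120812634 on the minus strand, chr5:120777660-120777779 on the minus strand, chr5:114923120-114923239 on the plus strand and chr5:114896814-114896933 on the plus strand.
Oas1a: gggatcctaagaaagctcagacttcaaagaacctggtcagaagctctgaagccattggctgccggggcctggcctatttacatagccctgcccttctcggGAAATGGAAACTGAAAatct
Oas1g: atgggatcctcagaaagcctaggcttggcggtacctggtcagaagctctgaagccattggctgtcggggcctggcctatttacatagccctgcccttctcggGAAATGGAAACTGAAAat
Oas1c: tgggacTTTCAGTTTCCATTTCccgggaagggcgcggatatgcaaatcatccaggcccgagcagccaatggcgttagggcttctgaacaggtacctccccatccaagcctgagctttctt
Oas3: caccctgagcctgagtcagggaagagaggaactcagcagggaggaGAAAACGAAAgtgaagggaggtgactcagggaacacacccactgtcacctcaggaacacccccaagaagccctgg
Oasl1: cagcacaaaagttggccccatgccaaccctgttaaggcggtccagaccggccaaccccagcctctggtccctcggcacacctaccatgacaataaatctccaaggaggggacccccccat
Oasl2: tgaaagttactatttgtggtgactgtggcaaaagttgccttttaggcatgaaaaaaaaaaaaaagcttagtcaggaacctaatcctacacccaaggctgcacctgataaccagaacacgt

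Oas1a and Oas1g held the same 16-base stretch, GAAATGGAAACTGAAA, made of 2 overlapping matches, and their 250 bases before the start were 82.8% identical in a global alignment. The same stretch stood on the opposite strand of the Oas1c window as TTTCAGTTTCCATTTC. It spans 120812613 to 120812628 on chromosome 5, so it ends 7 bases before the annotated start of Oas1b on the Oas1b strand. Oas3 held 1 match to the ISRE core, GAAAACGAAA, 75 to 66 bases before its start. The windows of Oasl1 and Oasl2 did not hold these letters, which says nothing of the factors that bind there. Of all 32851 RefSeq promoter windows, 3.443% held the ISRE core and 8.298% the GAS motif, which among the members only the Oas1a window held (TTCAAAGAA). The 16-base stretch was in 7 windows of 5 genes, namely Oas1a, Oas1c, Oas1g and the apolipoprotein L genes Apol9a and Apol9b.

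The Id4 siRNA lowered its target, with 59.4, 62.2 and 48.2 CPM of Id4 in the siID4 libraries and 135, 114 and 118 CPM in the NT libraries. CPM are counts scaled to the size of the library and by TMM, a factor that evens out library composition. A gene is called where edgeR's quasi-likelihood test gives a Benjamini-Hochberg adjusted p under 0.05 over the 13941 genes tested. Of all tested genes, 4.62% were called upward and 4.93% downward. All 7 markers of mammary epithelium passed the filter on low counts (2 rose, 1 fell), summing to between 2122 and 2470 CPM in siID4 and between 2304 and 2636 CPM in NT. Of 14 leukocyte markers 12 were in the table and 2 were tested (Cd68 and Csf1r). The sum of the 12 was 3.94 to 4.34 CPM in siID4 and 3.39 to 3.52 CPM in NT, with no overlap. Ptprc was at most 0.0880 CPM in any library and Cd52 was at 0 in all 6. Csf1r was not called, but its siID4 libraries (1.04, 1.31 and 1.14 CPM) lay above its NT libraries (0.602, 0.783 and 0.924 CPM). Lyz2, at most 0.173 CPM, had the same order, and the arms of the other leukocyte markers in the table overlapped. Of 7 fibroblast markers 6 were tested, 3 rose and 1 fell. The sum of the 7 was 3575 to 3689 CPM in siID4 and 2514 to 2750 CPM in NT, with no overlap. Most of it came from 2 collagen genes that rose, Col1a1 (mean 1817 CPM in siID4, 1171 in NT) and Col1a2 (1420 and 1074). Pdgfrb rose too (log2 fold change 0.43) and Pdgfra fell (−0.62). Dcn (−0.35) and Thy1 (1.08, at most 1.05 CPM) were not called. The sum of 5 endothelial markers, of which Kdr alone was tested and not called, was 1.23 to 1.49 CPM in siID4 and 0.470 to 0.748 CPM in NT, also with no overlap. The part of these differences in the results below was not tested, and more expressing cells cannot be told apart from more RNA per cell.

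Of the 8 members, 5 rose in siID4 cells, namely Oas2, Oas3, Oasl2, Oas1g and Oas1a, and the other 3 did not pass. All siID4 libraries lay above all NT libraries in 6 members, the 5 called ones and Oas1b, where 15.5% of all tested genes showed this order. All 8 members passed the filter on low counts. Their median log2 fold change was 0.96, against 0.00 over all genes tested, and 7 of the 8 estimates were above 0. The count of members called was between 4 and 6 in the fits that left out 1 library.

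**Figure D1:**
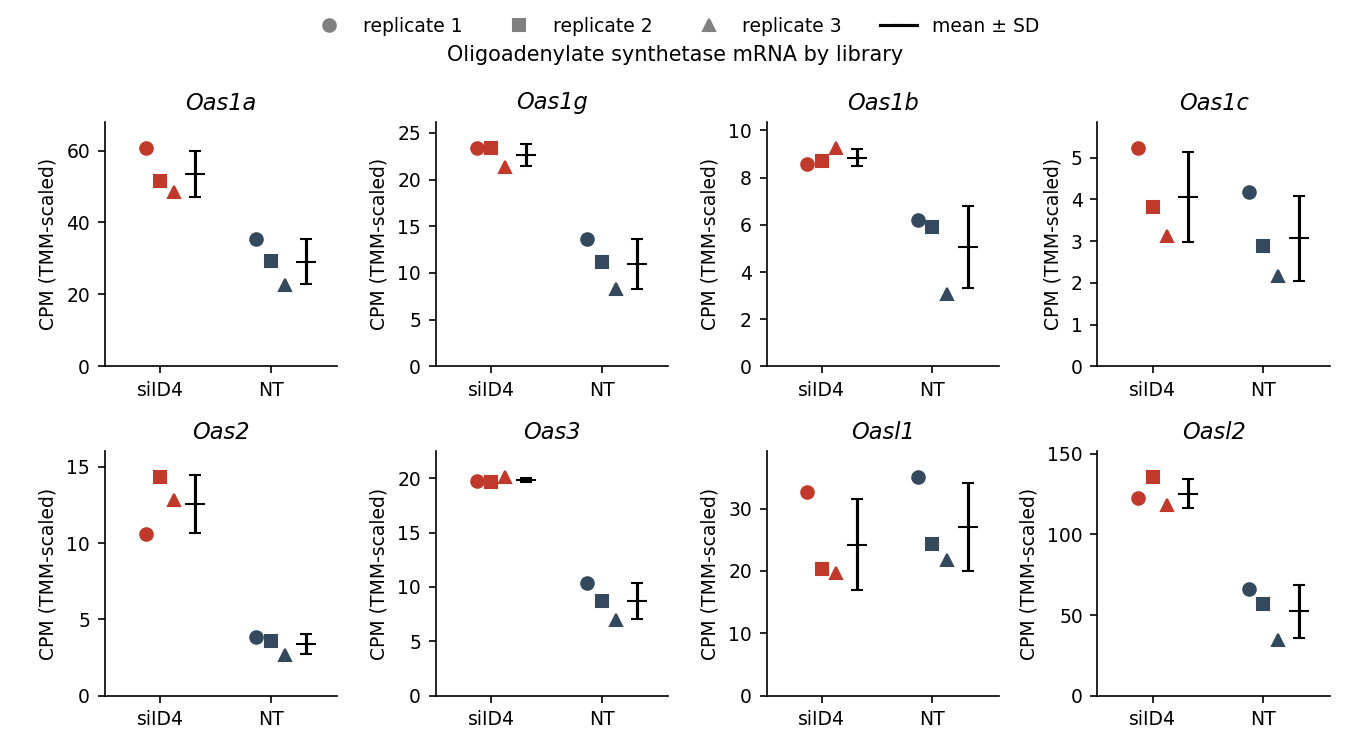
Level of each member in every library, in TMM-scaled CPM on linear axes from 0, with siID4 libraries in red and NT libraries in dark blue, marker shapes for the replicate numbers and bars for the mean ± SD (n = 3). The arms stand apart in 6 members and overlap in Oas1c and Oasl1.

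Oas1a (ENSMUSG00000052776, 120896256 to 120907521, minus strand) encodes an active synthetase and per length was the most abundant of the Oas1 copies. It had 60.7, 51.6 and 48.4 CPM in the siID4 libraries and 35.4, 29.4 and 22.7 CPM in the NT libraries. The lowest siID4 library stood 13.1 CPM above the highest NT library. Oas1a rose by 0.88 log2 units (SE 0.16, edgeR adjusted p = 0.0123). Oas1g (ENSMUSG00000066861, 120876142 to 120887613, minus strand), its neighbour and the other active copy, had 23.4, 23.3 and 21.3 CPM in siID4 and 13.6, 11.1 and 8.27 CPM in NT. The siID4 libraries of Oas1g lay within 1.10-fold of each other and the NT libraries within 1.64-fold. Oas1g rose by 1.05 log2 units (SE 0.15, edgeR adjusted p = 0.00483).

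Reads of these copies are hard to assign. Of the 75-base windows of Oas1a transcripts, 47.6% also occur in Oas1g, and of those of Oas1g 36.9% occur in Oas1a, while Oas1b shared 0 and Oas1c 1.51% with other genes. The labels and files do not state the read length. With windows of 50 bases the shares were 57.6% for Oas1a, 45.7% for Oas1g, 2.78% for Oas1b and 9.83% for Oas1c, and with 100 bases 40.9%, 31.3%, 0% and 0%. Oas1a and Oas1g are the members whose expected counts are not whole numbers, so the split between them is uncertain. Summed to 1 gene, Oas1a and Oas1g had a log2 fold change of 0.93 (SE 0.15, edgeR adjusted p = 0.00973). All Oas1 rows together had 0.89 (SE 0.16, edgeR adjusted p = 0.0172), which did not pass without siID4 replicate 1 (0.0595) or siID4 replicate 2 (0.0510).

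Oas1b (ENSMUSG00000029605, 120812635 to 120824163) is the flavivirus resistance gene of wild mice, and most laboratory strains carry a premature stop in it. It had 8.59, 8.70 and 9.25 CPM in the siID4 libraries and 6.22, 5.90 and 3.08 CPM in the NT libraries. The arms did not overlap, and NT replicate 3 lay well below the other NT libraries. With a log2 fold change of 0.81 (SE 0.22, edgeR adjusted p = 0.0543), Oas1b did not pass. Without NT replicate 3 the estimate was 0.54 and passed (edgeR adjusted p = 0.0366), as it did without NT replicate 1 (1.00, adjusted p = 0.0339). DESeq2 called it as well (adjusted p = 0.00915).

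Oas1c (ENSMUSG00000001166, 120800194 to 120812514, minus strand) is a copy whose product is not known to make 2-5A. It had 5.22, 3.804 and 3.11 CPM in siID4 and 4.17, 2.87 and 2.16 CPM in NT, so the arms overlapped. Its log2 fold change was 0.41 (95% interval −0.20 to 1.02, edgeR adjusted p = 0.386, and 0.0290 with the block of replicate numbers). Within each replicate number the siID4 library was the higher one, by 0.33, 0.41 and 0.53 log2 units. Estimates without 1 library ran between 0.18 (without siID4 replicate 1) and 0.70 (without NT replicate 1). Oas1c shares 227 exonic bases with Gm43069, an antisense transcript not analysed here, and whether the counting used strand is not stated in the labels.

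Of the remaining Oas1 copies, none passed the filter on low counts. Oas1d had between 1 and 3 counts per library in siID4 and 2, 0 and 0 counts in NT. Oas1e and Oas1f had 0 counts in all 6 libraries, which allows a level of up to 0.130 to 0.136 CPM in siID4 and 0.132 to 0.157 CPM in NT (3 counts per library, counting error only). Oas1h was not analysed here.

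Oas2 (ENSMUSG00000032690, 120730333 to 120749853, minus strand), a larger synthetase built from a tandem pair of OAS units, had the largest fold change of the 8. It had 10.6, 14.3 and 12.8 CPM in the siID4 libraries and 3.86, 3.60 and 2.64 CPM in the NT libraries. Every siID4 library was at least 6.71 CPM above every NT library. The mean was 12.6 ± 1.88 CPM in siID4 and 3.37 ± 0.645 CPM in NT (SD, n = 3 each, exact two-sided permutation p = 0.1, the smallest that 3 against 3 allows), a ratio of 3.73. The log2 fold change was 1.91 (95% interval 1.52 to 2.29, edgeR adjusted p = 5.85e-04) and ranked 14 among the 13941 genes. It stayed between 1.75 and 2.02 in all 14 alternative fits and was called in each.

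Oas3 (ENSMUSG00000032661, 120753098 to 120777661, minus strand), the largest of the synthetases, had 19.8, 19.7 and 20.1 CPM in siID4 and 10.3, 8.72 and 6.995 CPM in NT. Its siID4 libraries agreed within 1.02-fold, the smallest spread of any member in that arm. Oas3 rose by 1.20 log2 units (SE 0.13, edgeR adjusted p = 0.00129). Oas3 was called in all 14 alternative fits, at 1.06 to 1.34.

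Oasl2 (ENSMUSG00000029561), the mouse OAS-like protein that retains synthetase activity, was the most abundant member. It had 123, 135 and 118 CPM in siID4 and 66.2, 56.7 and 34.2 CPM in NT. The siID4 values lay close together and the NT values spread 1.93-fold. Oasl2 rose by 1.26 log2 units (SE 0.22, edgeR adjusted p = 0.0166). The call was lost without siID4 replicate 1 (adjusted p = 0.0731), 2 (0.0542) or 3 (0.0531), and with the replicate number as a block (0.0742), while the estimate stayed at 1.21 or more in these 4 fits. It was 1.03 (adjusted p = 4.17e-04) without NT replicate 3.

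Oasl1 (ENSMUSG00000041827) has no synthetase activity and is known in the mouse for holding back translation of Irf7 mRNA. It had 32.7, 20.2 and 19.7 CPM in the siID4 libraries and 35.0, 24.3 and 21.7 CPM in the NT libraries. In both arms replicate 1 was the high library, and the arms overlapped. The log2 fold change was −0.15 (95% interval −0.72 to 0.42, edgeR adjusted p = 0.758, and 0.0318 with the block). The interval leaves out the estimates of the 5 members that rose and of Oas1b (0.81), which was not called. It does not take in the errors of those estimates, so it is no test of a difference between members. The siID4 library was the lower one in each number, by −0.10, −0.26 and −0.14 log2 units, and leaving out NT replicate 1 turned the estimate to 0.08. Its 38 exonic bases shared with the antisense transcript Gm13822 bring few reads, since Gm13822 was at most 0.1004 CPM.

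**Figure D2:**
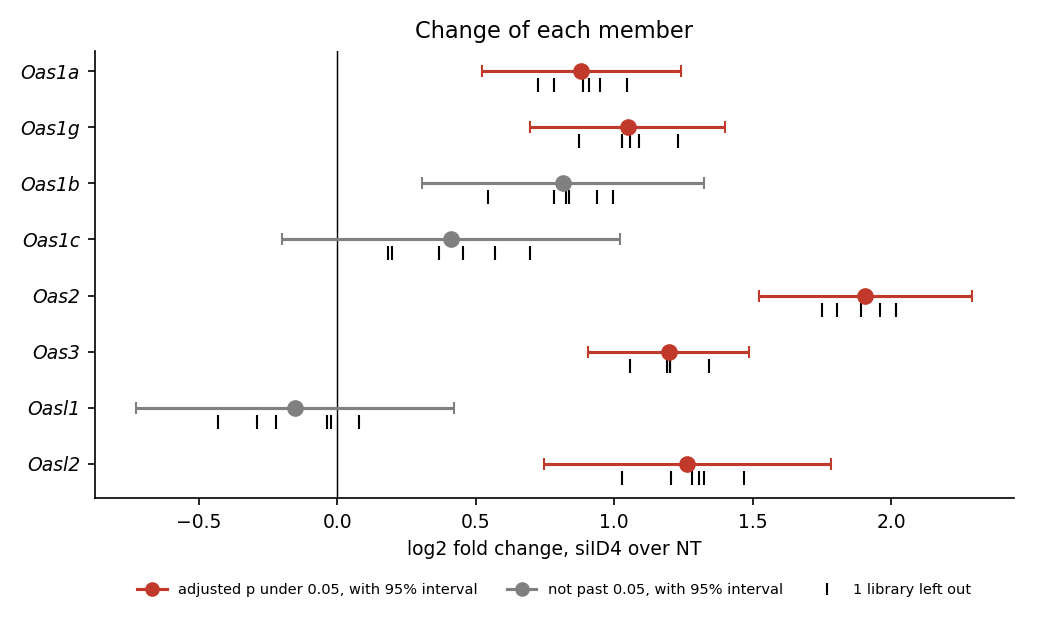
Log2 fold change of siID4 over NT for each member, with its 95% interval (dots and bars, red where the adjusted p is under 0.05) and the estimates with 1 library left out (black ticks). Oas2 lies highest at 1.91, and Oasl1 lies at −0.15 with an interval across 0.

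Same-numbered libraries deviated together across genes, with correlations of 0.42, 0.14 and 0.38 for numbers 1 to 3. In all 8 members NT replicate 1 was the highest and NT replicate 3 the lowest NT library, an order that 23.6% of all tested genes had. For Oas2 the difference within a number was 1.45, 1.99 and 2.28 log2 units for numbers 1, 2 and 3, and for Oasl2 it was 0.89, 1.26 and 1.79. Oas1b had 0.47, 0.56 and 1.59. In 7 of 8 members the difference was smallest in number 1 and largest in number 3, as in 17.7% of all tested genes. The direction was the same in every number for each of the 8.

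With the replicate number as a block in the edgeR model, 5 members rose and 1 fell, where 17.9% of all tested genes were called upward and 18.3% downward. The members differed from those of the fit without the block. Oas1c rose (adjusted p = 0.0290) and Oasl1 fell (−0.16, adjusted p = 0.0318), while Oasl2 (adjusted p = 0.0742) did not pass and Oas1b (0.0503) missed again. Oas1a, Oas1g, Oas2 and Oas3 were called in both fits.

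**Figure D3:**
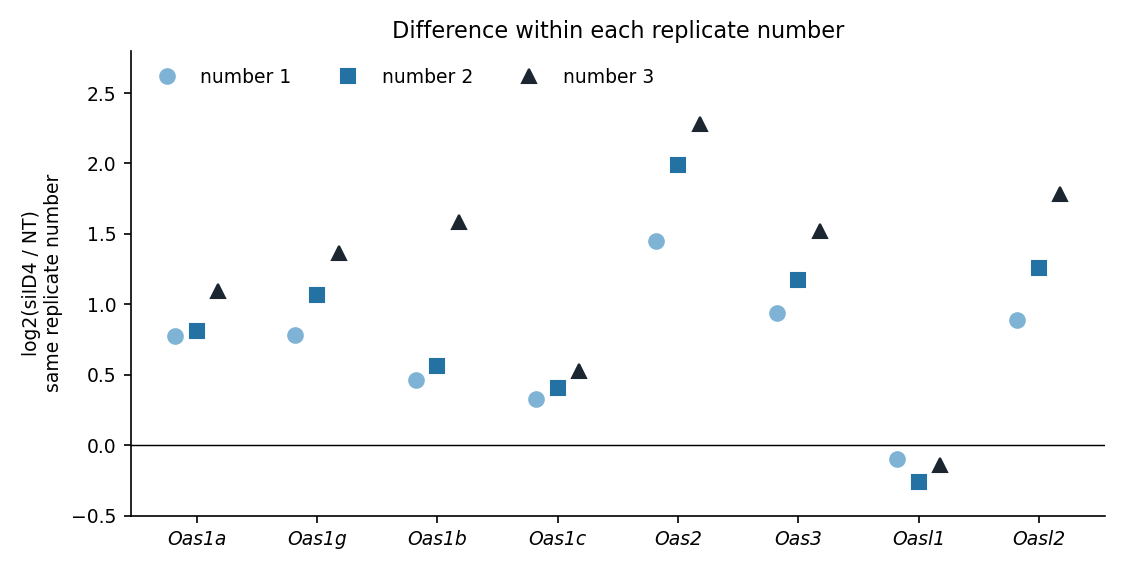
Difference between the siID4 and the NT library of the same replicate number, in log2 units, for each member. Number 3 (dark triangles) gave the largest difference in 7 members, and Oasl1 lay below 0 in all numbers.

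Levels can be compared between genes only per length, here as CPM per kilobase of the deposited gene length. In siID4 the order was Oasl2 (59.1 ± 4.23), Oas1a (28.4 ± 3.36), Oas1g (16.1 ± 0.833), Oasl1 (11.4 ± 3.46), Oas1b (5.40 ± 0.216), Oas3 (5.13 ± 0.0519), Oas2 (3.37 ± 0.504) and Oas1c (1.85 ± 0.491 CPM per kilobase, SD, n = 3). Of the 7 steps in this order 6 exceeded the summed SDs of the neighbours, and Oas1b and Oas3 did not differ beyond them. In NT the order was Oasl2 (24.7 ± 7.73), Oas1a (15.5 ± 3.38), Oasl1 (12.7 ± 3.31), Oas1g (7.81 ± 1.89), Oas1b (3.09 ± 1.06), Oas3 (2.25 ± 0.432), Oas1c (1.40 ± 0.465) and Oas2 (0.902 ± 0.173 CPM per kilobase). There only the step between Oas1g and Oas1b exceeded the summed SDs. These SDs leave out that the members were measured in the same libraries. Within every single library, the order of its arm held at each step, also between Oas1b and Oas3. Oas2 thus stood in the last place in NT and above Oas1c in siID4, and Oasl1 in the third place in NT and behind Oas1g in siID4.

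Summed over the family, the level was 138, 133 and 121 CPM per kilobase in siID4 and 85.5, 69.8 and 49.6 in NT. Oasl2 made up 45.2% ± 2.97 of this sum in siID4 and 35.8% ± 2.95 in NT, and Oasl1 8.65% ± 2.20 in siID4 and 18.7% ± 2.14 in NT (SD, n = 3 each). Oas2 accounted for 2.59% ± 0.460 in siID4 and 1.34% ± 0.114 in NT. The share of Oas1a was 21.7% ± 1.49 in siID4 and 22.9% ± 1.22 in NT, with values that overlap between the arms. The log2 ratio of CPM of Oas2 to Oasl1 averaged −0.92 in siID4 and −2.99 in NT, a difference of 2.07 (exact two-sided permutation p = 0.1, the smallest possible). This pair joins the members with the highest and lowest fold change, so it was the most extreme of the 28 pairs by choice. Of the 28 pairs, 22 had ratios that did not overlap between the arms, among them all 7 with Oasl1 and all 7 with Oas2. The pairs share members and are not independent. The share among pairs of all tested genes was not computed.

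**Figure D4:**
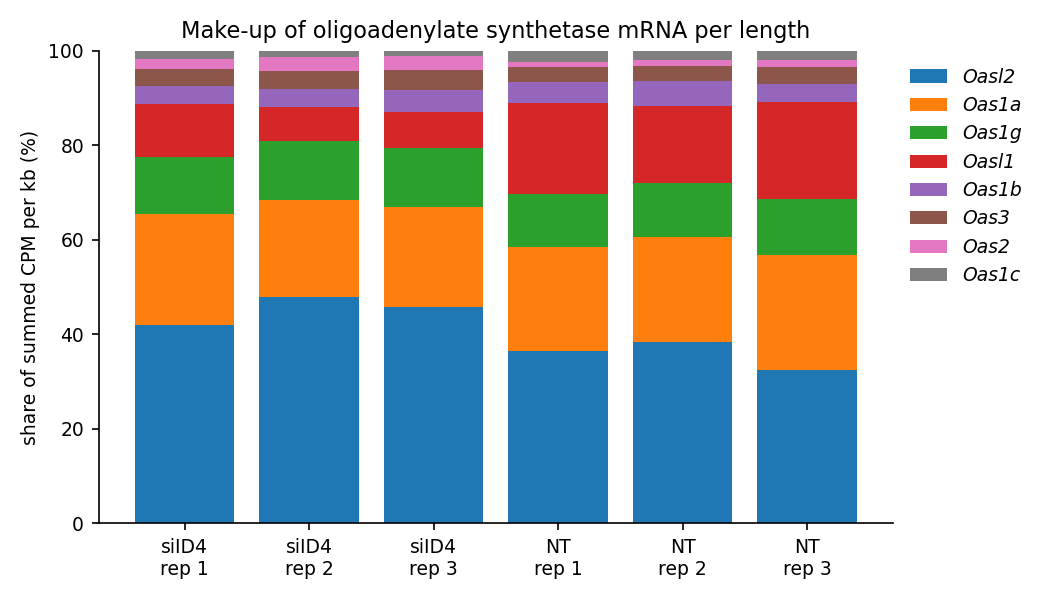
Share of each member in the summed CPM per kilobase of the oligoadenylate synthetase genes, in percent, for each library, siID4 on the left. Oasl1 (red) made up 7.14% to 11.2% in siID4 and 16.4% to 20.5% in NT, and Oasl2 (blue) was the largest share in every library.

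Of 3 genes that act around 2-5A, none passed in the fit without the block. Abce1, whose product recycles ribosomes, had 336, 360 and 377 CPM in siID4 and 368, 383 and 405 CPM in NT (−0.11, adjusted p = 0.272, and 0.00140 with the block). Pde12, a phosphodiesterase that degrades 2-5A, and Akap7, whose product can also cleave it, had log2 fold changes of 0.05 and 0.02. Of these 3 genes, edgeR, DESeq2 and limma-voom each called 0 upward, and 0 had an unadjusted p under 0.05 in edgeR. Abce1 was called downward with the block.

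Of the 10 genes reported here for the interferon receptor, its kinases and the factors it acts through, edgeR called 0. DESeq2 called 4 upward and limma-voom 2. In edgeR 6 of them, Jak1 with a lower estimate among them, had an unadjusted p under 0.05, as did 3567 of the 13941 genes tested. The median log2 fold change of the 10 was 0.17. Stat2 (0.50, edgeR adjusted p = 0.0522), Irf9 (0.50, 0.0702), Irf1 (0.27, 0.0601), Irf7 (1.16, 0.0543) and Ifnar2 (0.21, 0.154) had all siID4 libraries above all NT libraries. Of all tested genes, 15.5% had this order. Jak1 (−0.11, 0.108) had all siID4 libraries below all NT libraries. With the block Stat2, Irf9, Irf1, Irf7 and Ifnar2 rose, 5 in all, and Jak1 fell, where 17.9% of all tested genes were called upward and 18.3% downward. The receptor gene Ifnar1 (0.02) and the kinase gene Tyk2 (−0.06) did not pass in either edgeR fit, nor did Irf3 (0.02) and Socs1 (0.13), whose arms overlapped. Interferon genes themselves were at or near 0. Of 11 on the list, 5 were in the table and 0 passed the filter, with sums of 0.0877 to 0.130 CPM in siID4 and 0 to 0.1004 CPM in NT, at or below what 3 counts give in a library.

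Of 10 sensors of double-stranded RNA and other nucleic acids, 4 rose, with a median log2 fold change of 0.37. They were Zbp1, which binds Z-form nucleic acid (1.24), Ddx58, which encodes RIG-I (0.73), the RNA-editing enzyme gene Adar (0.36) and the endosomal receptor gene Tlr3 (0.26). Eif2ak2, which encodes the kinase PKR that like the synthetases answers to double-stranded RNA, had 180, 161 and 153 CPM in siID4 and 153, 113 and 93.8 CPM in NT (0.46, edgeR adjusted p = 0.135). Ifih1 (0.37), Dhx58 (0.66), Mavs (−0.15), Mb21d1 (−0.10) and Tmem173 (0.22) did not pass. With the block 7 rose and Mavs fell. Of all tested genes, 4.62% were called upward and 4.93% downward without the block, and 17.9% and 18.3% with it. The count was 2 without siID4 replicate 2, without siID4 replicate 3 or without NT replicate 3.

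Of 35 other interferon-inducible genes 34 were tested, 21 rose and 1, the chemokine gene Cxcl10, fell (−0.51). Of all tested genes 4.62% rose and 4.93% fell. The median log2 fold change of the list was 0.69. Psmb8, an immunoproteasome subunit (0.67), Bst2, which encodes tetherin (1.27), Herc6, which encodes a ligase for ISG15 in the mouse (0.94), and Gbp2, a guanylate-binding protein (1.16), had the smallest adjusted p. Some well-known genes of the list had arms that overlapped, as Oasl1 did. Ifit2 (0.06), Cmpk2 (0.10), Rsad2 (0.18) and Mx1 (0.40), named after their values were seen, had edgeR adjusted p between 0.677 and 0.898. Ifit1 (0.69, adjusted p = 0.156) also had arms that overlapped. With the block Mx1 rose (adjusted p = 0.0366) and the other 4 again did not pass. The count was 11 without siID4 replicate 2.

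**Figure D5:**
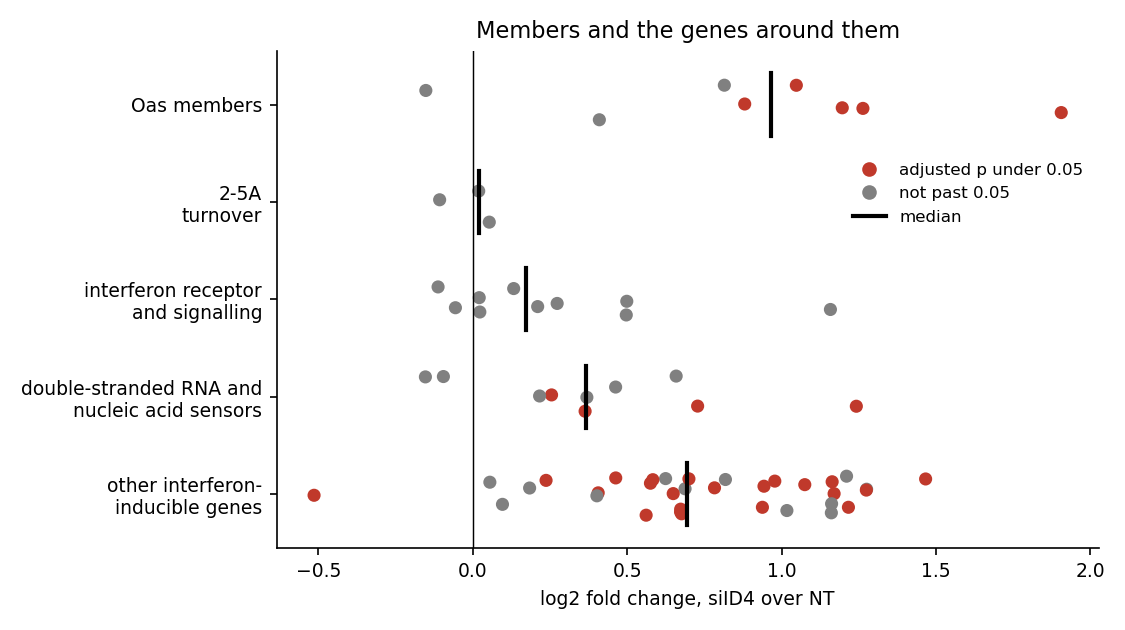
Log2 fold change of siID4 over NT for the 8 members and for the tested genes of 4 lists around them, red where the adjusted p is under 0.05, with the median of each list as a black bar. The medians are 0.96 for the members, 0.02 for the 2-5A turnover genes, 0.17 for the receptor and signalling genes, 0.37 for the sensors and 0.69 for other interferon-inducible genes.

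Apol9a and Apol9b, the other carriers of the 16-base stretch, are interferon-inducible in the mouse. Apol9a had 78.3, 74.0 and 77.2 CPM in siID4 and 58.2, 47.4 and 39.9 CPM in NT (0.66, SE 0.12, edgeR adjusted p = 0.0122, and 0.0606 with the block). Apol9b had 51.8, 54.2 and 52.3 CPM in siID4 and 38.2, 31.2 and 29.7 CPM in NT (0.68, SE 0.09, edgeR adjusted p = 0.00341). Their expected counts were not whole numbers, so the split between these close copies is uncertain. Of the members with a window, Oas1a, Oas1g, Oas1c and Oas3 held a match to the ISRE core, and Oasl1 and Oasl2 did not. In the fit without the block Oas1a, Oas1g, Oas3 and Oasl2 rose, and Oas1c and Oasl1 were not called. Whether the matches bear on the changes was not tested.

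Of the 12 nearest tested protein-coding genes, 3 on each side of each group, 1 passed. Ptpn11, which encodes the phosphatase SHP2 and lies 223012 bases past Oas1a, fell to 282, 264 and 266 CPM in siID4, against 327, 327 and 333 CPM in NT (−0.28, edgeR adjusted p = 0.00485). The other 11 had log2 fold changes between −0.07 and 0.21 and adjusted p of 0.0850 or more. The gene closest to the Oasl pair, 2210016L21Rik at 4243 bases, had 0.18 (adjusted p = 0.295). With the block 4 of the 12 rose, by at most 0.18, and 1 fell. The shares of all tested genes called were 17.9% upward and 18.3% downward with the block, and 4.62% and 4.93% without it.

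The pattern over the 6 libraries most like the mean of the 8 members' standardised log2 CPM belonged to Rab38, Isg15, Clu, Nub1, Irf7, Pdgfrb, Clmn and St3gal5, among named genes of at least 1 CPM. Their Pearson r was 0.995 or more, a description over 6 libraries that includes the difference between the arms. Isg15, the ubiquitin-like modifier, had r = 0.998 and a log2 fold change of 1.02 (edgeR adjusted p = 0.0698), and Irf7 had r = 0.997. Among the members themselves, each of which is part of this mean, Oas1a was closest to it (0.991) and Oasl1 farthest from it (0.216).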

How the data were processed

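The authors deposited 1 table of expected counts per gene with a gene length column. Per the submitters' processing notes, cutadapt, STAR, RSEM and mm10 were used. The labels and files state neither their versions nor the annotation release. Expected counts were rounded to whole numbers and tested with edgeR 4.0.16 (R 4.3.3, glmQLFit and glmQLFTest, robust, TMM, filterByExpr, group as the only term). SEs and 95% intervals come from the F statistic and its degrees of freedom. Alternatives were DESeq2 1.42.0, limma-voom (limma 3.58.1), other scalings and filters, the replicate block, sums of Oas1 rows and 1 library left out. The sum of Oas1a and Oas1g was chosen after seeing the data. Deviations of same-numbered libraries correlated above 0.1 in all 3 pairs, so the numbers were treated as possible pairs. Correlations are given for same-numbered libraries only, so they do not show that the samples were paired. The main tests leave the pairs out, and the fit with them as a block is given beside each member call it changes. The labels do not say what same-numbered samples share or whether cultures were separate. The p-values therefore rest only on the spread between these samples.

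The members and gene lists were chosen with earlier results of these data known. Some listed genes are not reported here, and list counts and medians leave them out. Named were all members, the genes of the 2-5A list, up to 4 called genes with the smallest adjusted p of each other list, receptor and sensor genes of at least 1 CPM, neighbours on chromosome 5, and the 8 genes most like the members. Promoters were read from RefSeq (GRCm38.p6) and positions and transcripts from GENCODE M21 (GRCm38), the assembly also called mm10. Windows were aligned with Biopython 1.88.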

Additional observations from a re-analysis of the deposited data

How the results depend on the processing

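Of 111 refits of single members under the alternatives, 97 kept the direction and the side of the threshold, 5 lost a call and 8 gained one. The uncalled log2 fold change of Oasl1 changed sign in 1 of them (NT replicate 1 left out), and ran from −0.43 to 0.078 without 1 library. All 5 losses were of Oasl2, including the unfiltered edgeR fit (adjusted p = 0.0934). Oas1a, Oas1g, Oas2 and Oas3 kept their calls in every alternative. The count of members that rose was 6 with library totals, DESeq2 and limma-voom, and 4 to 6 without 1 library. The sum of all Oas1 rows had a log2 fold change of 0.89 without the filter (edgeR adjusted p = 0.0994), and 0.71 to 1.06 without 1 library. The count of all genes called was 1331, 5038 with the replicate block, and 445 to 1351 without 1 library. The lowest counts were 445 (siID4 replicate 2 left out), 631 (NT replicate 2) and 884 (siID4 replicate 1). Of the other interferon-inducible genes 11 to 28 rose without 1 library. Of the receptor and signalling genes reported, 0 to 4 rose under alternatives other than the block.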
